A study of Mus musculus with 12 samples.

Results

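The high mobility group (HMG) genes were examined in skeletal muscle of mice that lack the taurine transporter and of wild-type mice. The set holds 8 genes: Hmgn1, Hmgn2, Hmgn3 and Hmgn5 of the nucleosome-binding HMGN proteins, Hmga1 of the AT-hook proteins, and Hmgb1, Hmgb2 and Hmgb3 of the HMG-box proteins. Their members were found as the probes that carry one of these names in the scanner files, which gave 22 of the 55681 probes on the array and 8 of its 34821 gene names. Hmgn2 was chosen by its lower signal in the knockout at both ages, so its differences between genotypes are a description. They went through the same fit as all other probes, but no p is given for them and nothing is read from their calls. The other 7 genes were added to show how the rest of the family stood beside it. RNA came from the tibial anterior muscle of male C57BL6 mice in 4 groups of 3: wild-type (WT) and taurine transporter knockout (TauTKO) mice aged 3 months, called young, and the same genotypes aged 18 months, called old. Both genotypes were bred as littermates from heterozygous parents, the knockout is present in the whole body, and 1 array was run for each mouse. No drug or diet distinguished the groups.

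HMG proteins are small, abundant chromatin proteins that do not belong to the histones. HMGN proteins bind directly to nucleosomes, compete there with linker histone H1 and loosen the chromatin fibre. HMGA proteins hold the minor groove of AT-rich DNA through their AT hooks, and HMGB proteins bend DNA through HMG boxes. HMGB1 can also leave damaged cells and is then read by receptors such as TLR4 as an alarm signal. Several HMG genes are known for high expression in dividing and undifferentiated cells, and adult muscle fibres no longer divide.

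A probe's level is given throughout as the log2 of its background-corrected intensity relative to the 75th percentile of its array, so a value of 0 equals that percentile, and levels of different probes cannot be set against each other. A probe was called when the Benjamini-Hochberg adjusted p of limma was under 0.05 over all 38973 probes tested and the fold was at least 1.8. The 75th percentile, which stands in for depth, was between 429.8 and 562.1 intensity units, and between 65.4% and 74.3% of probes were well above background on an array. Slide 1 held the young and slide 2 the old mice. Age therefore cannot be told apart from the slide, and each genotype comparison was made within 1 slide. Genotype was not balanced over the slide rows. Row 1 held young WT replicate 1 and young TauTKO replicates 1 and 2 on slide 1. On slide 2 it held old WT replicate 2 and old TauTKO replicates 1 and 2. All other arrays lay in row 2. The gene that encodes the transporter, Slc6a6, was not lower on the arrays labelled TauTKO. Its probe A_52_P339996 read 2.62, 2.16 and 2.38 in young WT and 3.48, 3.12 and 2.92 in young TauTKO. In the old mice it read 2.48, 2.84 and 2.48 in WT and 3.72, 3.47 and 3.18 in TauTKO. The level was thus higher on the arrays labelled TauTKO, by 0.85 ± 0.19 (log2 difference ± SE) at 18 months. Whether this probe lies in the deleted part of the gene was not examined, and every direction below rests on the labels.

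Hmgn2 was read by 4 probes on the minus strand of chromosome 4 (mm9). The 3 that lie in or close to the coding part are shown because they cover different, partly overlapping stretches of the gene. Related probes of other names are also compared with them. They are written 5′ to 3′, and the capital marks the 1 base at which the 17 bases shared by the first and second probe differ.
A_55_P2028491, chr4:133522878-133523729: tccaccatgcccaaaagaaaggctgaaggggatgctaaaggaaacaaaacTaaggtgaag
A_55_P2020461, chr4:133522388-133522894: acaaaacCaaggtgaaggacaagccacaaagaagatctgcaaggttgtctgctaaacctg
A_55_P2162136, chr4:133521866-133521925: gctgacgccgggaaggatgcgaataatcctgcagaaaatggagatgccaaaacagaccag
The first begins 6 bases ahead of an ATG, and its 60 bases span 852 bases of the genome, so it crosses an intron. The second spans 507 bases and also crosses one. The overlap holds 16 matching bases and the substitution T51C, counted from the 5′ end of the first probe. Whether the first or the second probe matches Hmgn2 RNA at this base was not examined. The third lies in one block, and the fourth, A_55_P1993789 at chr4:133520918-133520977, lies nearest the 3′ end of the gene.

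Every Hmgn2 probe was lower in the TauTKO arrays at both ages. A_55_P2020461 read -0.31, -0.14 and -0.25 in young WT and -1.73, -1.91 and -1.63 in young TauTKO. In old mice it read -0.32, -0.70 and 0.04 in WT and -1.89, -2.28 and -1.88 in TauTKO. The highest TauTKO array thus stayed below the lowest WT array of the same age. A_55_P2028491 read -0.03, -0.10 and -0.21 in young WT, -1.58, -1.62 and -1.33 in young TauTKO, -0.22, -0.64 and 0.00 in old WT, and -1.9, -2.20 and -1.65 in old TauTKO. A_55_P2162136 read 2.09, 2.01 and 2.07 in young WT, 0.62, 0.37 and 0.74 in young TauTKO, 2.11, 1.64 and 2.22 in old WT, and 0.51, 0.15 and 0.36 in old TauTKO. These probes gave the same picture, with tight young WT arrays and old WT replicate 2 below the other old WT arrays. The probe nearest the 3′ end, A_55_P1993789, read 3.43, 3.25 and 3.24 in young WT, 1.84, 1.69 and 1.96 in young TauTKO, 3.21, 2.78 and 3.39 in old WT, and 1.96, 1.31 and 1.44 in old TauTKO. Old WT replicate 2 was the lowest of its group in all 4 probes, and so were young TauTKO replicate 2 and old TauTKO replicate 2 of theirs.

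The differences of the 4 Hmgn2 probes lay close together. In old mice they were -1.56 ± 0.19 for A_55_P1993789, -1.69 ± 0.18 for A_55_P2020461, -1.63 ± 0.18 for A_55_P2028491 and -1.65 ± 0.16 for A_55_P2162136 (log2, TauTKO minus WT, ± SE, n = 3 per group). In young mice they were -1.48 ± 0.19, -1.52 ± 0.18, -1.39 ± 0.18 and -1.48 ± 0.16 in the same order. Relative to the mean of the WT arrays of its age, the signal of a TauTKO array was between 31.1% and 43.1% in young and between 25.7% and 44.4% in old mice. In whole muscle, fewer cells that express a gene and less RNA per cell cannot be told apart. All 4 probes were among the probes called lower at both ages, which is what chose the gene, and 0.118% of all probes tested were. Beside that stand 2.08% called in old and 0.375% in young mice in either direction, and 0.688% and 0.18% called lower. The young count fell to 0 of 4 without young WT replicate 1, and to 1 of 4 without young WT replicate 3 or young TauTKO replicate 2. Called probes of the whole array then numbered 9, 32 and 22 in place of 146.

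**Figure D1:**
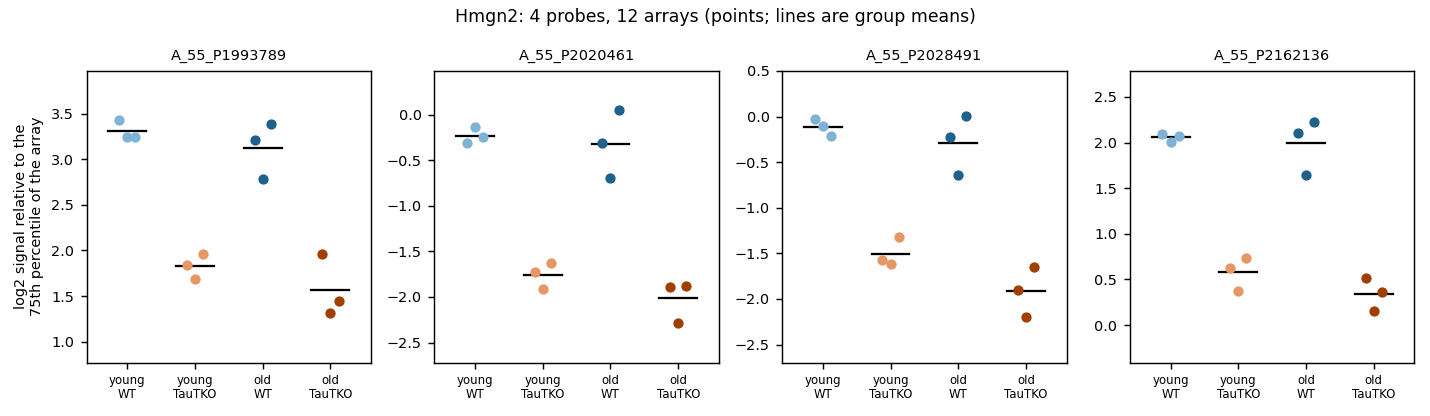
Levels of the 4 Hmgn2 probes in the 12 arrays, as log2 signal relative to the 75th percentile of the array; each point is 1 array, lines are group means, and every panel spans the same log2 range. In each panel the 3 TauTKO arrays of an age lie below the 3 WT arrays, by 1.39 to 1.69 log2 units between the means.

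Among the other HMGN genes none was called in either genotype comparison. Hmgn1, the closest relative of Hmgn2 and a nucleosome-binding protein of the same kind, was read by 2 probes on chromosome 16. A_55_P1989102 read 1.18, 1.00 and 1.07 in young WT, 0.97, 0.96 and 0.87 in young TauTKO, 0.86, 0.70 and 0.88 in old WT, and 0.63, 0.49 and 0.66 in old TauTKO. Its groups did not overlap at either age, but the gaps were small: -0.22 ± 0.09 in old mice (limma adjusted p = 0.176) and -0.15 ± 0.09 in young mice (adjusted p = 0.56). The other Hmgn1 probe, A_55_P2171158, differed by -0.22 ± 0.13 in old (adjusted p = 0.364) and by -0.21 ± 0.13 in young mice (adjusted p = 0.581), and old TauTKO replicate 1 at 3.37 lay above every old WT array. The old difference of this probe was -0.38 without that array (adjusted p = 0.0556) and -0.11 without old TauTKO replicate 3 (adjusted p = 0.66). Both Hmgn1 probes had 95% intervals whose lower ends, -0.42 and -0.51 in old mice, stayed above a fall of 1.8-fold.

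Hmgn3 and Hmgn5 pointed the other way from Hmgn2. Hmgn3, an HMGN protein of differentiated tissues, was read by A_52_P32369 on chromosome 9, at -0.61, -0.83 and -0.59 in young WT and at -0.25, -0.06 and -0.10 in young TauTKO. In the old mice it read -1.72, -1.27 and -1.39 in WT and -0.30, -1.12 and -1.26 in TauTKO. Each TauTKO group lay above its WT group, by 0.54 ± 0.23 in young (adjusted p = 0.349) and by 0.57 ± 0.23 in old mice (adjusted p = 0.173), which did not pass the test. The old difference was 0.27 without old TauTKO replicate 1 (adjusted p = 0.375). On that array the summed level of 6 slow fibre markers was also highest, at 201 times the 75th percentile against at most 15.3 times in old WT, and the part of this in the Hmgn3 value was not tested.

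Hmgn5, an HMGN protein with a long acidic tail, was read by 2 probes on chromosome X. A_55_P1982451 read 0.67, 0.64 and 0.52 in young WT, 0.98, 0.66 and 0.89 in young TauTKO, 0.26, 0.42 and 0.36 in old WT, and 0.69, 1.02 and 0.78 in old TauTKO. The old groups stood apart by 0.49 ± 0.11 (adjusted p = 0.0361), a ratio of 1.4 that passed the p but not the fold threshold, and the young groups overlapped (0.23 ± 0.11, adjusted p = 0.444). The adjusted p of the old difference was 0.069 with the replicate number as a block, and 0.129 without old WT replicate 1. A_51_P457331 was higher in every TauTKO array than in any WT array of its age, by 0.32 ± 0.12 in old (adjusted p = 0.137) and by 0.40 ± 0.12 in young mice (adjusted p = 0.158). Adjusted p alone was under 0.05 for 6.1% of all probes in old and for 0.836% in young mice, and in the family for 1 of the 18 probes outside Hmgn2 in old and for 0 in young mice.

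No HMGB probe was called in either genotype comparison. Hmgb1, the most abundant HMG-box protein of most cells, was read by 8 probes on chromosome 5, which share a transcript and are not independent. Without A_55_P2018283, the differences of the other 7 ran from -0.20 to 0.04 in old mice and from -0.17 to -0.05 in young mice, with adjusted p-values of at least 0.588 and 0.719. A_55_P2018283 stood apart, at 2.60, 2.61 and 2.67 in young WT and 2.41, 2.25 and 2.36 in young TauTKO. In the old mice this probe read 3.01, 2.89 and 3.19 in WT and 2.75, 2.63 and 2.74 in TauTKO. Its differences were -0.29 ± 0.09 in young (adjusted p = 0.207) and -0.32 ± 0.09 in old mice (adjusted p = 0.0718). Every Hmgb1 interval at both ages lay within a 1.8-fold change in either direction, the lowest end being -0.66.

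Hmgb2 and Hmgb3, HMG-box proteins known from dividing and from stem cells, had 1 probe each. Hmgb2 (A_55_P1994939, chromosome 8) read 0.59, 0.51 and 0.63 in young WT, 0.79, 0.17 and 0.44 in young TauTKO, 0.71, 0.77 and 0.69 in old WT, and 0.63, 0.49 and 0.29 in old TauTKO. The young groups overlapped and the old groups stood just apart, at -0.11 ± 0.15 (adjusted p = 0.844) and -0.26 ± 0.15 (adjusted p = 0.326). Hmgb3 (A_55_P1992421, chromosome X) read 1.11, 0.98 and 1.03 in young WT, 0.86, 0.79 and 0.61 in young TauTKO, 0.70, 0.62 and 0.92 in old WT, and 0.58, 0.33 and -0.41 in old TauTKO. It had the lowest difference of the 7 genes, -0.58 ± 0.21 in old mice (adjusted p = 0.141) against -0.29 ± 0.21 in young mice (adjusted p = 0.661), and neither passed. Without old TauTKO replicate 3, the lowest array, the old value was -0.29 (adjusted p = 0.213).

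Hmga1, which bends AT-rich promoters and is high in embryonic tissue, was read by 3 probes on chromosome 17 that did not move together. A_51_P483118 read 4.42, 4.47 and 4.52 in young WT, 4.50, 4.48 and 4.45 in young TauTKO, 4.58, 4.55 and 4.71 in old WT, and 4.70, 4.69 and 4.86 in old TauTKO. A_55_P2076057 read -1.76, -1.9 and -1.83 in young WT, -1.92, -1.78 and -1.91 in young TauTKO, -1.53, -1.62 and -1.75 in old WT, and -2.25, -1.92 and -1.75 in old TauTKO. The old differences were 0.13 ± 0.08 (adjusted p = 0.36) for the former and -0.34 ± 0.12 (adjusted p = 0.138) for the latter, with opposite signs, and the young ones were 0.00 ± 0.08 and -0.04 ± 0.12 (adjusted p = 0.992 and 0.945). The third probe, A_66_P102232, was well above background on 10 of 12 arrays and differed by -0.31 ± 0.30 in old (adjusted p = 0.556) and -0.06 ± 0.30 in young mice (adjusted p = 0.967).

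Of all probes tested, limma called 2.08% in old and 0.375% in young mice. Across the 18 probes of the 7 genes beside Hmgn2, 0 were called in old and 0 in young mice by limma. At an unadjusted p under 0.05 there were 7 in old and 3 in young mice, where 22.8% and 12.8% of all probes tested had such a p. Groups did not overlap for 8 of the 18 in old mice and for 6 in young mice, against 27.3% and 22.4% of all probes tested. The median difference was -0.17 in old and -0.14 in young mice, where the median over all probes was -0.08 and -0.03. Their 95% intervals lay within a 1.8-fold change in either direction for 15 of 18 probes in old and 17 of 18 in young mice. The same held for 27063 and 29523 of the 38973 probes tested. Of the 18 probes, the 8 of Hmgb1 are not independent. They gave 1 of the probes without overlap at each age, and all 8 of their intervals lay within 1.8-fold at both ages. The lowest interval end of any of the 18 was -1.05, for Hmgb3 in old mice.

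**Figure D2:**
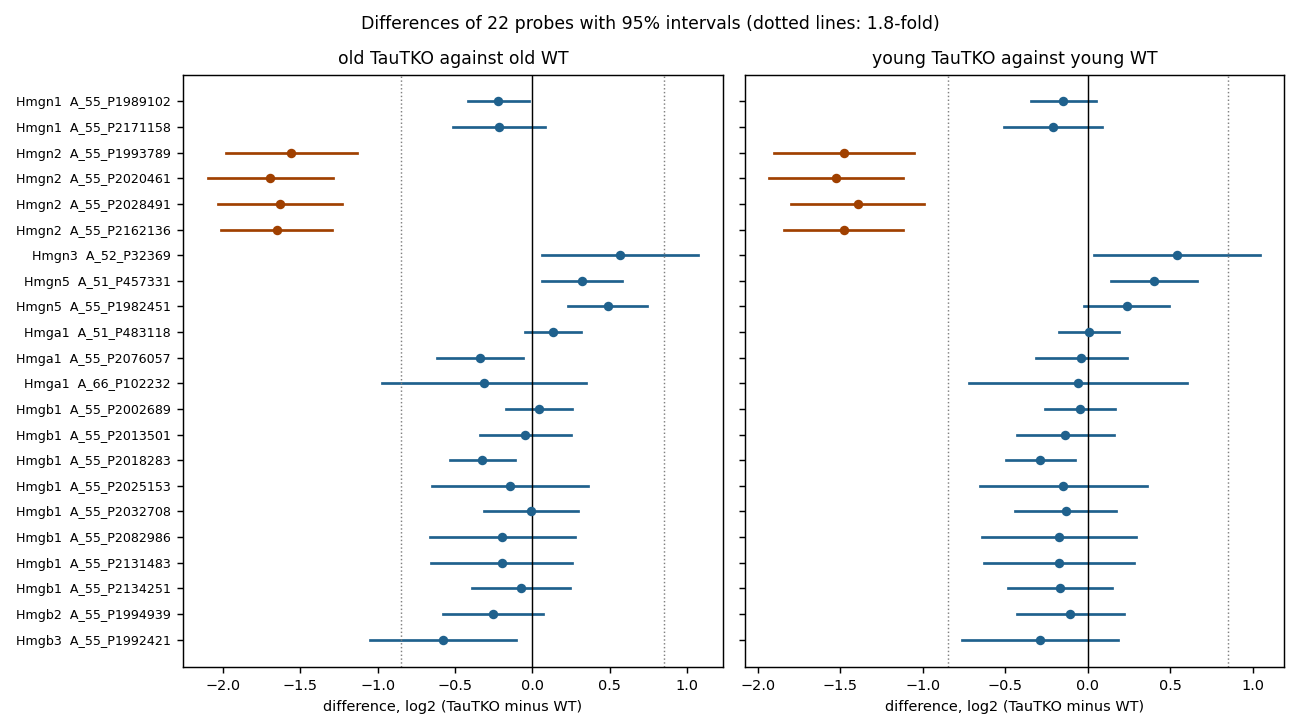
Difference between TauTKO and WT (log2) of the 22 probes in old mice (left) and young mice (right), with 95% intervals from the fit; dotted lines mark a 1.8-fold change. The 4 Hmgn2 probes, which chose the gene and are shown as a description, lie between -1.39 and -1.69, and the 18 other probes between -0.58 and 0.57.

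**Figure D3:**
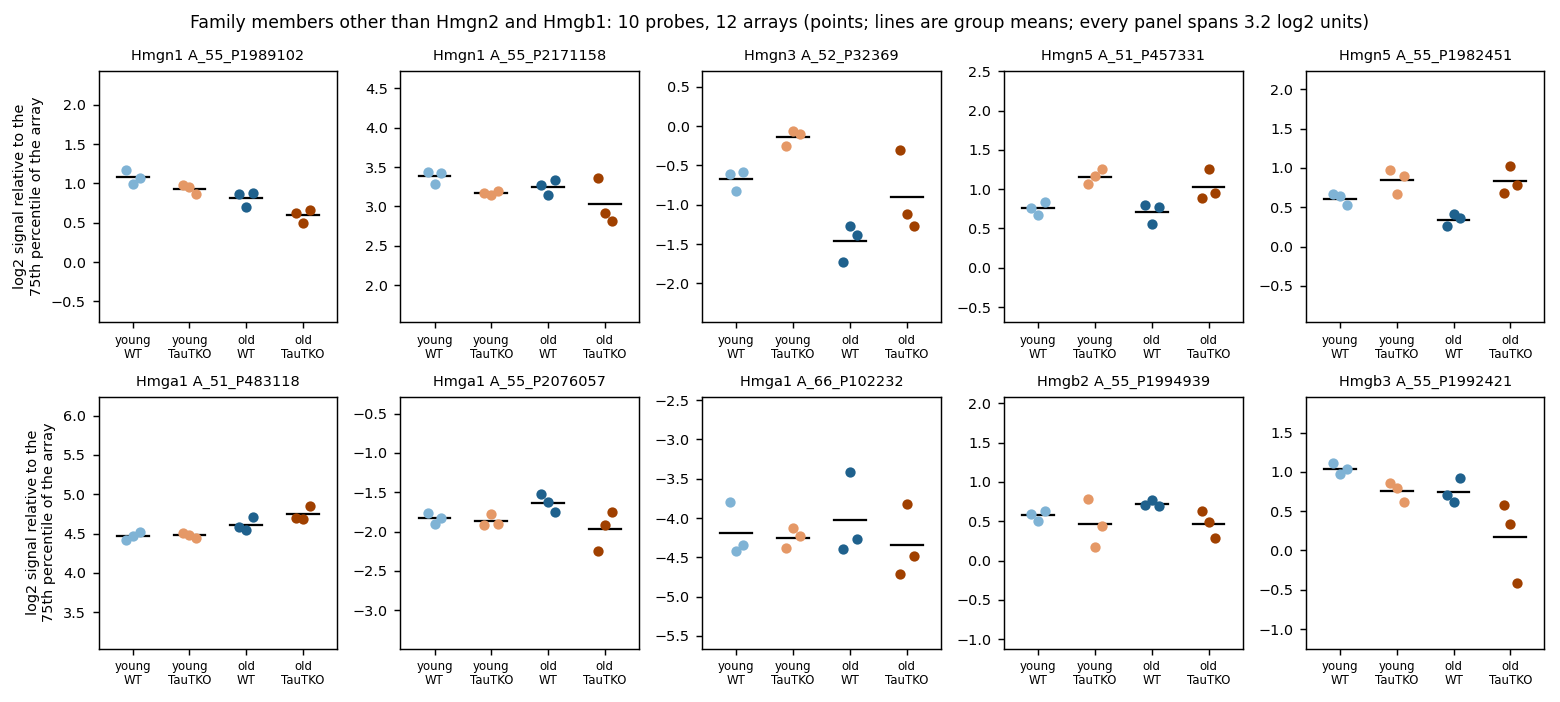
Levels of 10 probes of Hmgn1, Hmgn3, Hmgn5, Hmga1, Hmgb2 and Hmgb3 in the 12 arrays (log2 signal relative to the 75th percentile of the array; points are arrays, lines are group means, and each panel spans the same range). Hmgn3 is higher in young than in old arrays of either genotype, and 1 old TauTKO array of Hmgn3 and 1 of Hmgb3 lie away from their group.

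HMG genes have many processed copies in the mouse genome, so the array was searched for probes of other names whose sequence resembled a member's probe. An ungapped match on the same strand over at least 30 bases with at least 80% identity was required, and 35 probes met this. Of these, 6 were related to Hmgn2, and all 6 were lower in every TauTKO array than in any WT array of the same age. Their differences were between -1.68 and -1.21 in old and between -1.49 and -0.89 in young mice. Over all probes tested, groups did not overlap, in either direction, for 27.3% in old and 22.4% in young mice. The 6 were picked for likeness to probes of a gene chosen for this fall, so nothing is read from their count. The copies below are printed because they show how few bases separate them from Hmgn2 probes. Capitals mark bases that differ from the Hmgn2 probe named, within the stretch that both share.
Gm7931 (A_55_P2094964, chr4:133522385-133522891), against A_55_P2020461: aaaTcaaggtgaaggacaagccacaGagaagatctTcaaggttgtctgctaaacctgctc
NAP027141-1 (A_55_P2026214, chr7:101345912-101345971), against A_55_P2162136: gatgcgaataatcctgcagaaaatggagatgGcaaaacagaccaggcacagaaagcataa
ENSMUST00000165525 (A_55_P2011490, chr17:47153669-47153727), against A_55_P2162136: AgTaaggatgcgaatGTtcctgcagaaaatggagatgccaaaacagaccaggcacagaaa
NAP025970-1 (A_51_P163261, chrX:90884119-90884178), against A_55_P2162136: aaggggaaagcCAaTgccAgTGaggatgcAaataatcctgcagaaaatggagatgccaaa
Counted from the 5′ end of the Hmgn2 probe, Gm7931 carries the substitutions C7T, A29G and G39T over 57 shared bases, NAP027141-1 carries C47G over 45, and ENSMUST00000165525 carries G10A, G12T, A25G and A26T over 51. NAP025970-1 has 7 mismatches over 51 bases, the lowest identity of the group at 86.3%.

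The size of the fall was close to that of Hmgn2 in 5 of the 6 related probes and smaller in the sixth. Gm7931, which the files place at the Hmgn2 locus itself, differed by -1.68 in old and -1.35 in young mice. NAP027141-1, with the fewest mismatches, differed by -1.63 and -1.47, and ENSMUST00000165525 by -1.61 and -1.41. LOC101056031 (A_52_P657123) differed by -1.57 and -1.45, and NAP103489-1 (A_55_P2112355), which resembles the probe nearest the 3′ end, by -1.64 and -1.49. NAP025970-1 had the smallest differences, -1.21 and -0.89. Which of these probes hybridise to Hmgn2 RNA was not tested, and near-identical copies are uncertain as separate genes. Among 29 probes related to Hmgb1, Hmgb2 or Hmgn1, 0 were called by limma at either age, like the genes they resemble. Over all probes tested, 2.08% were called in old and 0.375% in young mice, so nothing is read from this count. Of the 29, 27 resembled Hmgb1, with differences between -0.20 and -0.02 in old mice and between -0.22 and -0.06 in young mice.

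**Figure D4:**
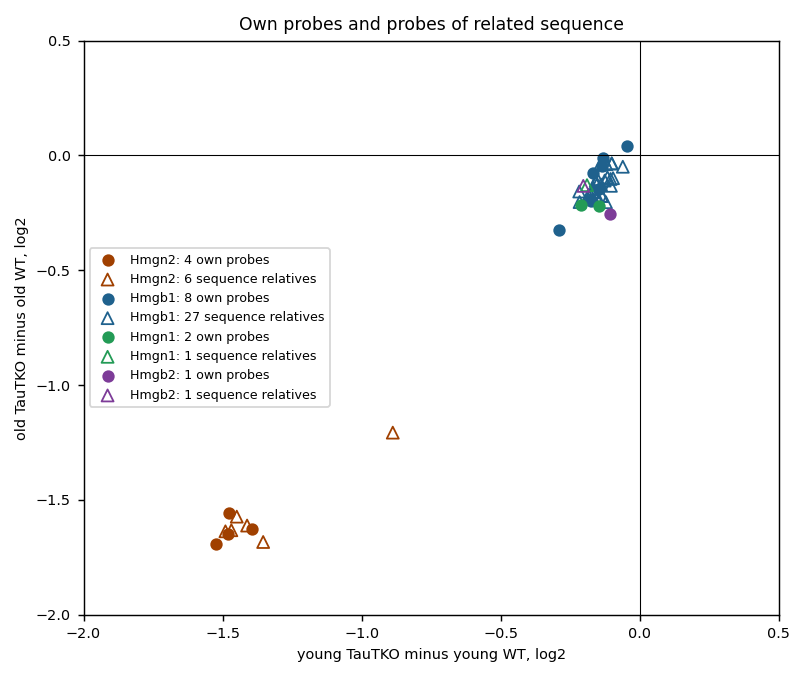
Difference between TauTKO and WT in young mice (horizontal axis) and in old mice (vertical axis), both in log2 units, of the probes of Hmgn2, Hmgb1, Hmgn1 and Hmgb2 (filled circles) and of probes of other names with related sequence (open triangles). The 4 Hmgn2 probes and 5 of their 6 relatives lie together at the lower left, the sixth relative at -0.89 and -1.21, and all others near the origin.

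Age was not used to choose Hmgn2, and its probes were tested for it. In WT mice the 4 differences, old minus young, were between -0.18 and -0.07, with limma adjusted p-values between 0.606 and 0.85 and intervals that all lay within 1.8-fold. In TauTKO mice they were between -0.41 and -0.24, with adjusted p-values between 0.229 and 0.491. No age difference of Hmgn2 was called in either genotype, and 1 of the 8 had an unadjusted p under 0.05 (A_55_P2028491 in TauTKO), against 22.5% of all probes in WT and 21% in TauTKO. In order of level the groups ran young WT, old WT, young TauTKO, old TauTKO in each probe; only the step from old WT to young TauTKO was free of overlap in all 4 probes. Of all probes, 1.55% were called between old and young WT and 1.79% between old and young TauTKO. The counts among the 22 member probes were 0 and 0.

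Between the ages, some members had an adjusted p near 0.05 without being called. Hmgb1 A_55_P2018283 was higher in old WT by 0.40 ± 0.09 (adjusted p = 0.0395, ratio 1.32) and in old TauTKO by 0.37 ± 0.09 (adjusted p = 0.0527), under the fold threshold in both. The other 7 Hmgb1 probes differed by -0.10 to 0.06 between old and young WT. Hmgn3 was lower in old mice, by -0.78 ± 0.23 in WT (adjusted p = 0.0769) and by -0.76 ± 0.23 in TauTKO (adjusted p = 0.0864), and the groups did not overlap in either genotype. Hmgn1 A_55_P1989102 was lower in every old array than in any young array of its genotype, by -0.27 in WT (adjusted p = 0.111) and by -0.34 in TauTKO (adjusted p = 0.0556). Hmga1 A_51_P483118 was higher in every old array, by 0.14 in WT (adjusted p = 0.334) and by 0.27 in TauTKO (adjusted p = 0.0892). Without old TauTKO replicate 1 the Hmgn3 difference in TauTKO was -1.06 (adjusted p = 0.00775) and was called. Adjusted p alone was under 0.05 for 5.04% of all probes in WT and 5.14% in TauTKO, and for 1 and 0 of the 22 members. A difference of the genotype effect between the ages was called for 0% of all probes by limma, where 2116 had an unadjusted p under 0.05. For the 18 probes beside Hmgn2 that difference was between -0.30 and 0.25, with adjusted p-values of at least 0.927.

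Genes that work beside HMG proteins were read from fixed lists with 1 probe a gene, the brightest. The counts of called genes below stand against 2.08% of all probes called in old and 0.375% in young mice, and nothing is called particular to a list. Of 20 tested genes with HMG boxes or AT hooks outside the family, 0 were called at either age by limma, and their median differences were 0.01 in old and -0.03 in young mice. Bbx, an HMG-box transcription factor, had the smallest p, with 0.39 in old (adjusted p = 0.0885) and 0.41 in young mice (adjusted p = 0.162). Of 9 linker histones, the proteins with which HMGN compete for nucleosomes, 0 were called, and the list's medians were -0.21 and -0.07. Hist1h1e, a main linker histone, passed adjusted p alone at both ages, with 0.46 in old (adjusted p = 0.025) and 0.60 in young mice (adjusted p = 0.0308). It read 0.70, 0.87 and 0.61 in young WT, 1.32, 1.24 and 1.43 in young TauTKO, 1.16, 1.2 and 1.0 in old WT, and 1.67, 1.53 and 1.53 in old TauTKO. H1f0, the linker histone of resting cells, differed by -0.38 in old mice (adjusted p = 0.203). Of 20 histone variants and chaperones, 0 were called at either age, and H2afz, a variant histone of active promoters, was nearest with 0.26 in old mice (adjusted p = 0.082).

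Of 9 tested receptors and partners of HMGB1, 1 was called in old and 0 in young mice, beside the 2.08% and 0.375% of all probes. Tlr4, a receptor of the innate immune system that binds extracellular HMGB1, read -1.56, -1.84 and -2.04 in young WT and -0.92, -1.0 and -1.12 in young TauTKO. In old mice it read -2.44, -2.32 and -2.44 in WT and -1.03, -0.81 and -1.29 in TauTKO. It rose by 1.36 in old mice (adjusted p = 0.00137) and was higher by 0.80 in young mice (adjusted p = 0.0409), which is under the fold threshold; the difference between the ages was not called for any probe. Tlr2, another innate receptor, differed by 0.50 in old mice (adjusted p = 0.0564), and the list's median was 0.13 at both ages. Macrophage markers moved in the same arrays: 3 of 7 were called higher in old mice, where 2.08% of all probes were called, and 0 in young mice, and their summed level was between 9.56 and 12.4 times the 75th percentile in old WT and between 17.4 and 19.6 times in old TauTKO. Their part in the Tlr4 value was not tested.

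Of 27 tested proliferation genes, 1 rose and 1 fell in old mice, and 0 rose and 1 fell in young mice, with medians of 0.25 and 0.10. Of all probes, 2.08% were called in old and 0.375% in young mice. Mcm6, a subunit of the replicative helicase, rose by 1.29 in old mice (adjusted p = 0.0112) and differed by 0.57 in young mice (adjusted p = 0.33). Tk1, thymidine kinase of the S phase, fell by 0.91 in old mice (adjusted p = 0.00785) and differed by -0.44 in young mice (adjusted p = 0.226). Aurka, a mitotic kinase, fell by 0.87 in young mice (adjusted p = 0.0464) and differed by -0.70 in old mice (adjusted p = 0.0344), under the fold threshold. Called genes of this list therefore did not share a direction. Adjusted p alone was under 0.05 for 5 of the 27 in old mice, against 6.1% of all probes. Beside Mcm6, which was higher, and Tk1 and Aurka, which were lower, these were Mcm2 and Mcm3. Mcm2 differed by -0.58 (limma adjusted p = 0.0196) and Mcm3 by -0.50 (limma adjusted p = 0.0314).

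The genes whose pattern over the 12 arrays was most like the mean of the 4 Hmgn2 probes were sought among 32674 probes that were well above background on every array and carry no member's name. Probes named only by an identifier were set aside; the likest of these was ENSMUST00000165525, the copy shown above. The likest named genes were Gm7931 (r = 0.99) and LOC101056031 (r = 0.99), both related in sequence, followed by Ubr7, Mad2l2 and 2810013P06Rik with r between 0.98 and 0.99. The arrays share the split by genotype that chose Hmgn2, so such values are high for any gene with that split, and r is given as a description over 12 arrays. After the mean of each group was removed, r was 0.94 for Gm7931, 0.89 for LOC101056031, 0.88 for Ubr7, 0.90 for Mad2l2 and 0.61 for 2810013P06Rik. The genes were picked by r over the same 12 arrays, so these values and any shared order of replicates follow in part from that choice. Ubr7, which encodes a ubiquitin ligase with a PHD finger, had differences of -0.38 (old) and -0.29 (young), with 2.06, 2.11 and 2.11 in young WT, 1.8, 1.77 and 1.85 in young TauTKO, 2.14, 1.95 and 2.14 in old WT, and 1.72, 1.65 and 1.74 in old TauTKO. Like Hmgn2, it was lowest of its group in replicate 2 of old WT, young TauTKO and old TauTKO. Old WT replicate 2 lay in another slide row than old WT replicates 1 and 3. It had 74.3% of probes well above background, against 65.5% in each of those. The part of this array in the r values without group means was not tested. Mad2l2, a subunit of the shieldin and DNA polymerase zeta complexes, differed by -0.44 and -0.31.

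The most opposed genes were Akap17b (r = -0.98), Ampd2 (r = -0.98), Gprc5b (r = -0.98), Ddx3x (r = -0.97) and Arrb1 (r = -0.96). Akap17b, an anchor protein of protein kinase A, read -1.71, -1.57 and -1.76 in young WT, -0.83, -0.78 and -1.0 in young TauTKO, -1.84, -1.34 and -1.98 in old WT, and -0.68, -0.47 and -0.73 in old TauTKO. Old WT replicate 2, the lowest of its group for Hmgn2, was the highest of its group here, and r was -0.92 after the group means were removed. Akap17b too was picked by r over these arrays, so both follow in part from the choice. Ampd2, an AMP deaminase, had differences of 0.84 at both ages, and Gprc5b, an orphan receptor, of 1.19 at both. Ddx3x, an RNA helicase, differed by 0.45 and 0.46, and Arrb1, a beta-arrestin, by 0.59 and 0.59.

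Neighbours of Hmgn2 on chromosome 4 were read to see whether the lower signal extended beyond the gene; this comparison was chosen after the values were seen. Within 1000 kb on either side, 88 probes with 59 names besides Hmgn2 and Gm7931 were tested. Their median difference was 0.00 in old and -0.01 in young mice, and 1 of 88 was called in old and 1 in young mice, against 2.08% and 0.375% of all probes. Dhdds, which makes dolichol and lies directly next to Hmgn2 at 2.81 and 4.64 kb, differed by 0.16 and -0.03 in old and by 0.03 and -0.19 in young mice. Farther out, the nearest probes on either side were A_55_P2083894 at -45.7 kb, which differed by 0.42 in old (adjusted p = 0.433) and 0.85 in young mice (adjusted p = 0.259), and Lin28a at 37 kb, which differed by -0.46 (adjusted p = 0.163) and -0.11 (adjusted p = 0.88). The called probe at both ages belonged to Paqr7, a membrane progesterone receptor whose probe lies at chr4:134064434-134064493, and it rose. It read 0.32, 0.46 and 0.43 in young WT, 1.96, 2.06 and 1.63 in young TauTKO, 0.35, 0.62 and 0.72 in old WT, and 2.06, 1.96 and 1.78 in old TauTKO. The differences were 1.37 ± 0.14 in old (adjusted p = 0.00114) and 1.48 ± 0.14 in young mice (adjusted p = 0.0058).

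**Figure D5:**
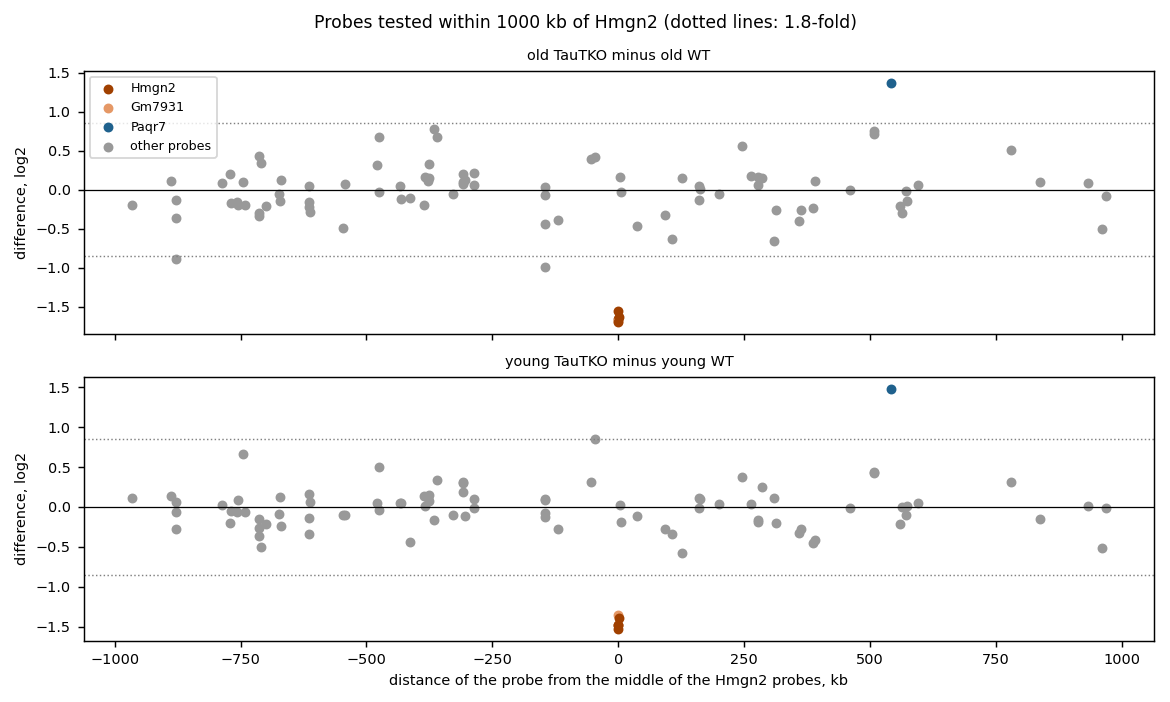
Difference between TauTKO and WT (log2) of probes tested within 1000 kb of Hmgn2, against the distance of the probe from the middle of the Hmgn2 probes, in old mice (upper panel) and young mice (lower panel); dotted lines mark a 1.8-fold change. Hmgn2 and the overlapping Gm7931 lie between -1.35 and -1.69, Paqr7 at 1.37 and 1.48, and the Dhdds probes between -0.19 and 0.16.

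The label of muscle was borne out by fast fibre markers such as Myh4 and Tnni2, whose summed level over 8 genes was between 5560 and 7510 times the 75th percentile on every array. It was 6160 to 6660 times in young TauTKO against 6740 to 7500 times in young WT, and 5560 to 6190 times in old TauTKO against 6700 to 7510 times in old WT, with 0 of 8 genes called. The 5 markers of fibres of all types summed to 2600 to 2760 times in young TauTKO against 3000 to 3290 times in young WT, and to 2160 to 2410 times in old TauTKO against 2710 to 3070 times in old WT. None of these 5 was called, but Ckm, the muscle creatine kinase, differed by -0.43 (adjusted p = 0.0387) and Mb, myoglobin, by -0.57 (adjusted p = 0.0246) in old mice, under the fold threshold. Of 5 satellite cell markers, 0 were called. Their sums were 10.4 to 10.9 times in old TauTKO against 7.83 to 9.27 times in old WT, and 8.73 to 9.28 times in young TauTKO against 7.92 to 9.19 times in young WT. Their median difference in old mice was -0.37, with the opposite sign to the sums, which weigh the brightest probes most. Cdh15, a cadherin of satellite cells and the brightest of the 5, differed by 0.63 (limma adjusted p = 0.00656), under the fold threshold. Fibro-adipogenic markers summed to 137 to 150 times in old WT and 191 to 217 times in old TauTKO, with 2 of 6 called higher. In young mice they summed to 280 to 288 times against 328 to 409 times, with 1 of 6 called higher. Dcn, the brightest of them, was not called in old mice (0.46, limma adjusted p = 0.0542). The counts called among markers stand against 2.08% of all probes in old and 0.375% in young mice. Fat cell sums were 6.78 to 21.7 times in old WT and 25.3 to 86.2 times in old TauTKO, and overlapped in young mice. Of their 5 markers, 0 were called at either age. Only Cfd separated the old groups, at 2.16, 3.57 and 3.74 in WT and 5.99, 4.43 and 5.38 in TauTKO. Adipoq, Plin1, Lep and Retn overlapped between them. Of the markers of slow fibres, T and B cells, endothelial cells, red blood cells and Schwann cells, 0 were called at either age. The part of these cells in the Hmgn2 level was not tested.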

How the data were processed

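The authors hybridised muscle RNA to 1-colour Agilent SurePrint G3 arrays, 1 per mouse, and deposited Feature Extraction 10.10.1.1 output (per the labels). The deposited intensity of a spot is linear and background-corrected, with no scaling between arrays, and coordinates are those of mm9 (per the file headers). The authors also deposited a series table of the same intensity values as whole numbers, used as an alternative. Its columns of replicates 1 and 2 are swapped in old WT and in old TauTKO when set beside the scanner output. The paper's methods name GeneSpring, unpaired tests, a fold of 1.8 and p under 0.05.

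Here, log2 intensity minus that of the array's 75th percentile was computed (R 4.3.3 with the data.table package, version 1.17.8). Control spots and 1465 outlier spots were dropped, and repeated spots averaged; no member probe had an outlier spot. The 38973 probes well above background on all 3 arrays of a group were fitted with limma 3.58.1 (lmFit and eBayes, 4 group means over 12 arrays), with Benjamini-Hochberg adjustment over all of them. Filtered in this way, 22 of 22 member probes were tested. Intervals are 95%.

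The members and gene lists were chosen with earlier results of these data known. Named were every member with every probe, up to 4 genes per list (called in old mice with the largest change, otherwise with the smallest p), and the 5 genes most like and most opposed to Hmgn2. Genes with several probes in lists were read by the brightest. Sequence relatives, the chromosome neighbours and values of Aurka in young mice were added after the data were seen. The code was tested on simulated data. The 3 arrays per group limit the precision. Alternatives were other scalings, normexp with an offset of 50, other filters, outlier spots kept, the methods' test, only the groups compared, an intensity trend, no fold threshold, the table of the series, replicate and slide row blocks, and each array left out.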

Additional observations from a re-analysis of the deposited data

How the results depend on the processing

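The 4 Hmgn2 probes kept their direction under every alternative run, with differences between -1.88 and -1.28 in old and between -1.59 and -1.13 in young mice. With normexp background correction, A_55_P2020461 moved to -1.28 in old and -1.21 in young mice and A_55_P2028491 to -1.30 and -1.13. Of 22 member probes, 4 were called in old mice; 2 were called with only the groups compared (208 of all probes in place of 812), 5 with no fold threshold (2379 of all probes) and 0 with the methods' test after Benjamini-Hochberg adjustment, which called 0 of all probes. In young mice the last also gave 0. The numbers ran from 0 to 4 in young mice when single arrays were left out and stayed at 4 in old mice. Over all probes these counts ran from 485 to 937 in old and from 9 to 192 in young mice. The members called between genotypes were Hmgn2 probes, apart from Hmgn5 with no fold threshold. The Hmgn2 values chose the gene, so nothing is read from how its calls held. Outside Hmgn2, 1 probe was called in old TauTKO against old WT (Hmgn5) and 1 in old WT against young WT (Hmgb1) with no fold threshold, and 0 to 1 (Hmgn3) in old against young TauTKO when single arrays were left out. Single arrays left out turned the sign of small young differences. These ran from -0.022 to 0.030 for Hmga1 A_51_P483118 and from -0.18 to 0.13 for Hmga1 A_66_P102232, both turned without young WT replicate 1 (-0.022 and 0.13) or young TauTKO replicate 1 (-0.0082 and 0.0079), and from -0.27 to 0.040 for Hmgb2, turned without young TauTKO replicate 2. The cause was not tested. Median scaling moved the median of all probes by 0.105 in old mice and changed no direction of the members named with their values in every array. Of the 7 Hmgb1 probes given only as a range, it turned the sign of 3 in old and 0 in young mice, and their old range became -0.09 to 0.15.

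Deviations of same-numbered WT and TauTKO arrays correlated between -0.14 and 0.32, and those of differently numbered arrays between -0.21 and 0.22. The highest value was that of replicate 3 of young WT and young TauTKO, which share a slide row. With 3 arrays per group, these values cannot decide whether arrays were paired, and the main fit used no pairing. With the replicate number as a block, 4 member probes were called in old and 4 in young mice, all of them Hmgn2 probes, whose values chose the gene, so that nothing is read from this. Of the other 7 genes 0 and 0 were called, and 735 and 99 over all probes in place of 812 and 146.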
